A study of Mus musculus with 12 samples.

Results

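Transcripts of 10 genes of the integrated stress response were followed in mouse liver: the eIF2 kinase gene Eif2ak3, the phosphatase subunit gene Ppp1r15a, the transcription factor genes Atf4, Atf5, Atf3 and Ddit3, and the target genes Asns, Chac1, Trib3 and Sesn2. They were chosen by gene symbol, and all 10 were found among the 55367 symbols of the deposited table. The livers came from 6 samples with severe acute pancreatitis (SAP) after caerulein, a peptide that mimics cholecystokinin and drives the pancreas to secrete, and from 6 control samples. Both groups were wild-type Balb/c mice aged 6 weeks, with no transgene or deletion named in the labels. The sources used here give no caerulein dose, no time of sampling and no further agent. The design text speaks of a pair of mouse models, and the labels do not tell which samples belong to which. Samples are numbered SAP 10 to SAP 15 and control 3 to control 8, and the labels do not say that each is its own animal, so a p-value here covers the spread from sample to sample and no more.

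The integrated stress response begins when a kinase phosphorylates the translation factor eIF2. General protein synthesis then falls, while messenger RNAs with certain upstream reading frames, Atf4 among them, are translated more. The ATF4 protein induces genes of amino acid supply and further regulators, including the transcription factor CHOP (the product of Ddit3) and GADD34 (the product of Ppp1r15a), which brings a phosphatase to eIF2 and closes the loop. PERK, the kinase encoded by Eif2ak3, sits in the membrane of the endoplasmic reticulum (ER) and is one of the sensors of the unfolded protein response, next to ATF6 and IRE1. ATF4 is controlled largely at translation and eIF2 by phosphorylation, so the levels of their own transcripts do not measure the activity of either.

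ATF4 binds DNA as a partner of C/EBP proteins at a composite element, and the sequences that hold it are shown because genes with the element moved in both directions in these livers. The letters TGATGNAA were searched on both strands from 250 bases before to 50 after each RefSeq start site on GRCm38.p6, and 3.97% of the 32851 promoters in the table held them. All 10 genes were matched, with 11 promoters because Atf5 has a pair. The element was found in 4 of the genes, in the opposite orientation in Atf3, Chac1 and Trib3, so that the capitals are its reverse complement there. Each run below is 30 bases on the strand of the gene, 5′ to 3′.
Asns, chr6:7693214-7693243, minus strand: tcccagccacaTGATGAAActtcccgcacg
Chac1, chr2:119351038-119351067, plus strand: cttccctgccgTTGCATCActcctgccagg
Atf3, chr1:191183425-191183454, minus strand: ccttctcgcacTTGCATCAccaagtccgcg
Trib3, chr2:152344028-152344057, minus strand: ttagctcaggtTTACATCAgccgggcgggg
The capitals begin 23 bases before the start site in Asns, 193 before it in Chac1, 110 before it in Atf3 and 14 after it in Trib3. The 100 bases before the Asns start site are given for context, since its transcript had the largest difference of the 10.
Asns, chr6:7693210-7693309, minus strand: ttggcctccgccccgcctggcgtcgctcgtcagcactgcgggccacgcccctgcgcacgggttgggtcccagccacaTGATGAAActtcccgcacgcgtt
The cAMP response element TGACGTCA, a site of CREB and ATF family proteins, was in 1.79% of promoters and among these genes in Ppp1r15a, 12 bases before the start site.
Ppp1r15a, chr7:45526262-45526291, minus strand: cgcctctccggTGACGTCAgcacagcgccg
The ER stress response element, searched in its full spaced form (0.12% of promoters), and the unfolded protein response element TGACGTGG (0.68%) had no match in these windows. A match describes letters only, and no binding was measured.

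Of the 10 transcripts, 7 rose in SAP livers, 1 fell and 2 did not pass the test (limma across 11335 genes, Benjamini-Hochberg adjusted p under 0.05). Asns, Ddit3, Chac1, Eif2ak3, Atf3, Atf5 and Atf4 were higher, and Trib3 was lower. Of all tested genes, 19.5% were higher and 25.0% lower in SAP livers at this threshold, 44.5% in either direction. SAP and control values did not overlap for 3 of the 10 genes, all higher in SAP livers, and for 25.6% of tested genes in either direction. The median log2 change was 0.48 over the 10 genes and -0.03 over all tested genes. All 10 reached 1 TPM in at least 6 of the 12 libraries, which was the condition for testing, but Asns met it through SAP libraries alone, with 6 of 6 SAP and 0 of 6 control libraries at that level. Values are TPM, a transcript abundance corrected for length and scaled to one total per library, and log2 changes are SAP minus control on the log2(TPM + 1) scale, which understates the change of low transcripts.

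**Figure D1:**
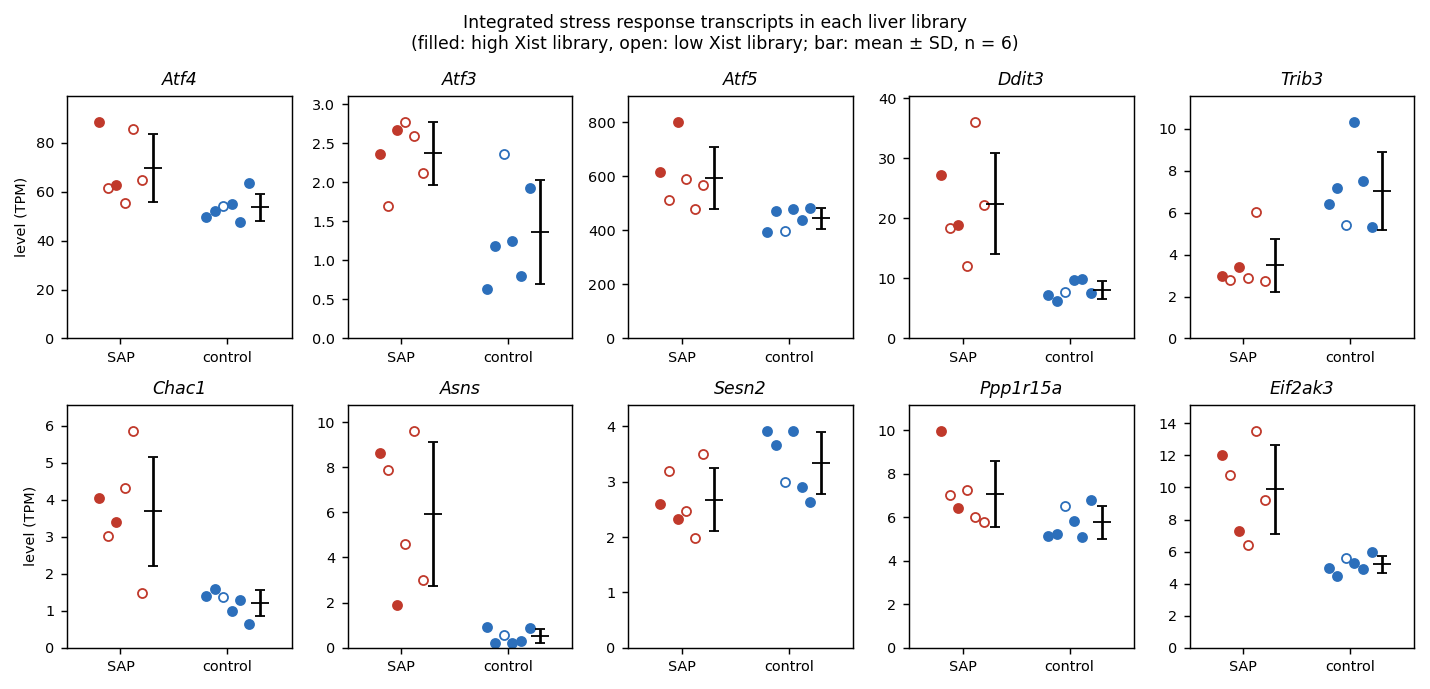
Level of each of the 10 transcripts (TPM, vertical axes from 0) in 6 SAP and 6 control liver libraries; points are libraries, open points are libraries with Xist under 30 TPM, and bars give the mean ± SD (n = 6). Asns, Ddit3 and Eif2ak3 separate the groups, and Trib3 is lower in 5 of 6 SAP libraries than in any control library.

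The kinase transcript rose and the phosphatase transcript did not pass the test. Eif2ak3 had a lowest value of 6.44, a median of 9.99 and a highest value of 13.5 TPM in SAP livers, against 4.48, 5.12 and 5.97 TPM in control livers. Every SAP library lay above every control library. The mean was 9.88 ± 2.76 TPM in SAP livers and 5.2 ± 0.529 TPM in control livers (SD, n = 6 each). On the log2 scale the rise was 0.77 ± 0.15 (SE; limma adjusted p = 0.000959). Groups that do not overlap in this direction were found for 10.5% of tested genes. Ppp1r15a, which encodes the inducible subunit that directs protein phosphatase 1 to eIF2, ranged from 5.76 to 9.97 TPM in SAP livers with a median of 6.72, against 5.09 to 6.78 TPM in control livers with a median of 5.52. The ranges overlapped, and SAP 10 stood above the rest of its group. The log2 difference was 0.24, with a 95% interval from -0.01 to 0.50 (limma adjusted p = 0.111). With scaling factors like those of TMM it passed the test (0.29, limma adjusted p = 0.0474), and without SAP 10 the difference was 0.15. In the low Xist libraries alone, 4 SAP and 1 control library with Xist under 30 TPM, it was -0.01, with no test.

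Among the transcription factor genes, Ddit3 showed the clearest difference. Ddit3 encodes CHOP, a bZIP protein that pairs with C/EBP and ATF proteins and is linked to cell death under lasting ER stress. Its lowest, median and highest values were 12.1, 20.6 and 36.1 TPM in SAP livers, against 6.24, 7.68 and 9.85 TPM in control livers. The groups did not overlap, and SAP 14 was the highest. The mean was 22.5 ± 8.34 TPM in SAP livers and 8.09 ± 1.44 TPM in control livers (SD, n = 6 each), 2.78 times as high, or a rise of 1.31 ± 0.21 on the log2 scale (SE; limma adjusted p = 0.000182).

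The symbol Ddit3 stands on 2 rows of the table, and the row with the higher median over the 12 libraries was used. GENCODE M21 on GRCm38 also has 2 genes of that name, which overlap on the plus strand of chromosome 10, one from 127290774 to 127296288 and the other from 127290829 to 127293753. The file gives no identifier that would tie a row to one of them. The other row was listed at 0 in 9 libraries, at 298 TPM in SAP 14, at 146 TPM in SAP 11 and at 30.1 TPM in control 6. With both rows summed the log2 change was 2.03 (limma adjusted p = 0.0406), and the groups overlapped. The other row alone put control 6 at 30.1 TPM. SAP 10, 12, 13 and 15 had 0 in that row, so their summed values were 27.25, 18.87, 12.05 and 22.24 TPM. All of these lay below control 6. The separation of Ddit3, in level and in ratio to Atf4, therefore holds for the row used alone. Ddit3 also overlaps Mars, on the opposite strand, which the table lists as Mars1. Mars1 averaged 38.7 TPM in SAP livers and 39.5 TPM in control livers, above Ddit3 in both groups, and reads from the overlap cannot be told apart if strand was not used in counting.

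Atf4 and Atf5 differed less. Atf4 had a lowest value of 55.4, a median of 63.6 and a highest value of 88.7 TPM in SAP livers, against 47.6, 53.3 and 63.4 TPM in control livers. The ranges overlapped, with 3 of 6 SAP libraries above every control library. The log2 change was 0.35 ± 0.12 (SE; limma adjusted p = 0.0249), and the mean was 1.30 times as high in SAP livers. The call did not hold without SAP 10 (limma adjusted p = 0.0531), control 3 (0.0523) or control 7 (0.0554), nor without both SAP 14 and control 5 (0.0671) or with no filter on low values (0.115). With quantile normalization the change was 0.58 (limma adjusted p = 0.0047).

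Atf5, a bZIP factor whose translation also responds to eIF2 phosphorylation and which is abundant in liver, was by far the highest of the 10 per transcript length. It ranged from 479 to 803 TPM in SAP livers with a median of 579, against 395 to 484 TPM in control livers with a median of 456. In 5 of 6 SAP libraries it was above every control library, and SAP 14 was the exception. The log2 change was 0.40 ± 0.11 (SE; limma adjusted p = 0.00962), and 0.66 with quantile normalization. In GENCODE M21, Atf5 overlaps Nup62 and Il4i1 on the opposite strand. Nup62 averaged 5.69 TPM in SAP livers and 7.57 TPM in control livers, and Il4i1 reached at most 0.16 and 0.21 TPM there. Ppp1r15a overlaps Tulp2 on the opposite strand, which reached at most 0.12 TPM in SAP livers and 0.74 TPM in control livers. Whether reads were counted by strand is not stated in the sources.

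Atf3, a stress-inducible factor that can repress transcription, was low in both groups. It ranged from 1.70 to 2.78 TPM in SAP livers with a median of 2.49, against 0.63 to 2.37 TPM in control livers with a median of 1.22. The groups overlapped through control 5, at 2.37 TPM, and control 8, at 1.93 TPM. The log2 change was 0.55 ± 0.17 (SE; limma adjusted p = 0.0168), and 0.87 with a pseudocount of 0.1. The call did not hold with a split of the libraries by Xist level as a term (under 30 TPM or above it; log2 change 0.45, limma adjusted p = 0.0808). In the low Xist libraries alone, with 1 control and no test, the difference was -0.04.

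The target genes went apart. Asns encodes asparagine synthetase, which makes asparagine from aspartate and glutamine. It had a lowest value of 1.89, a median of 6.22 and a highest value of 9.61 TPM in SAP livers, against 0.20, 0.435 and 0.92 TPM in control livers. The groups did not overlap, although SAP 12 lay close to the control range. The mean was 5.93 ± 3.20 TPM in SAP livers and 0.513 ± 0.322 TPM in control livers (SD, n = 6 each), a ratio of 11.5. The log2 change was 2.07 ± 0.30 (SE; limma adjusted p = 9.03e-05), and 3.26 with a pseudocount of 0.1, so its size depends on how values under 1 TPM are treated. Among all 11335 tested genes its change ranked 63rd from the top on the log2(TPM + 1) scale. The rank is a description only, since Asns entered the test through SAP libraries alone.

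Chac1 encodes an enzyme that degrades glutathione. It ranged from 1.47 to 5.86 TPM in SAP livers with a median of 3.72, against 0.63 to 1.59 TPM in control livers with a median of 1.34. SAP 15 lay inside the control range and the other SAP libraries above it. The log2 change was 1.03 ± 0.21 (SE; limma adjusted p = 0.00113), and the mean was 3.04 times as high in SAP livers.

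Trib3 encodes a pseudokinase that is induced through ATF4 and CHOP and binds AKT and ATF4. It fell in SAP livers. Its lowest, median and highest values were 2.76, 2.95 and 6.03 TPM in SAP livers, against 5.31, 6.80 and 10.3 TPM in control livers. In 5 of 6 SAP libraries it was below every control library, and SAP 14 was the exception. The mean was 3.48 ± 1.27 TPM in SAP livers and 7.03 ± 1.85 TPM in control livers (SD, n = 6 each), a ratio of 0.496. The log2 change was -0.85 ± 0.17 (SE; limma adjusted p = 0.00144), and -0.99 without SAP 14.

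Sesn2, a stress-inducible sestrin that restrains mTORC1, ranged from 1.98 to 3.50 TPM in SAP livers with a median of 2.53, against 2.64 to 3.92 TPM in control livers with a median of 3.33. In 4 of 6 SAP libraries it was below every control library. The log2 difference was -0.24, with a 95% interval from -0.50 to 0.01 (limma adjusted p = 0.116). Within this interval a fall cannot be told from no difference.

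**Figure D2:**
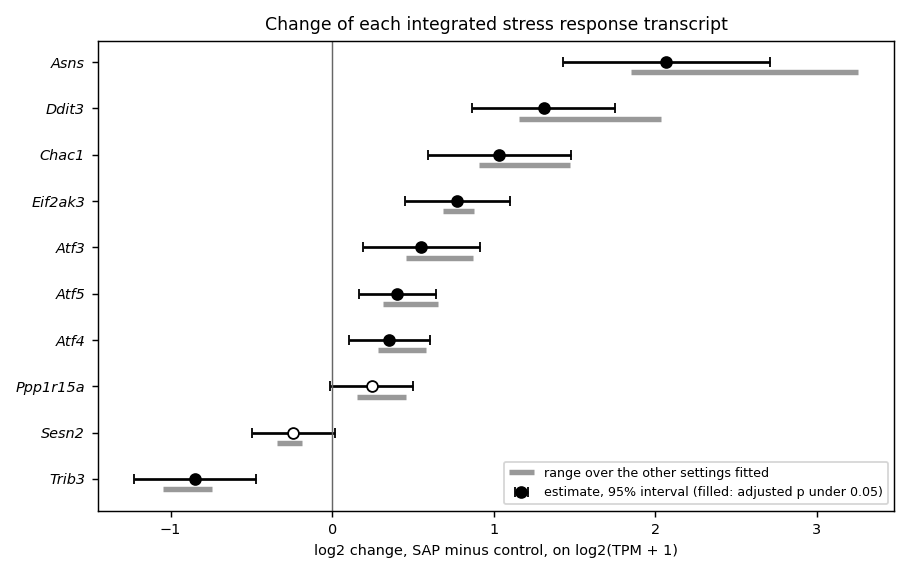
Log2 change of each transcript, SAP minus control, on log2(TPM + 1), with its 95% interval; filled points passed an adjusted p of 0.05, and grey bars give the range over the other settings fitted, without the low Xist comparison, which had no test. The estimates run from -0.85 for Trib3 to 2.07 for Asns, and no grey bar crosses 0.

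Per transcript length, the order of the mean levels in SAP livers was Atf5 (595 TPM), Atf4 (69.7), Ddit3 (22.5), Eif2ak3 (9.88), Ppp1r15a (7.07), Asns (5.93), Chac1 (3.68), Trib3 (3.48), Sesn2 (2.68) and Atf3 (2.37). From Ddit3 down, the ranges of neighbours in this order overlapped. In control livers it was Atf5 (445 TPM), Atf4 (53.7), Ddit3 (8.09), Trib3 (7.03), Ppp1r15a (5.76), Eif2ak3 (5.2), Sesn2 (3.34), Atf3 (1.36), Chac1 (1.21) and Asns (0.513). There the ranges of neighbours overlapped from Ddit3 to Eif2ak3 and from Atf3 to Asns. Asns was last in control livers and sixth in SAP livers, while Trib3 stood above Ppp1r15a in control livers and below Chac1 in SAP livers.

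Ratios to Atf4 within a library do not depend on how the library was scaled, and they are given as a description. Asns was at 3.02 to 12.8% of the Atf4 level in SAP libraries with a median of 9.0%, against 0.363 to 1.86% in control libraries with a median of 0.839%. Ddit3 was at 21.7 to 42.2% of Atf4 in SAP libraries, against 11.9 to 20.7% in control libraries. Eif2ak3 was at 11.6 to 17.5% in SAP libraries, against 8.56 to 10.3% in control libraries. These ratios separated the groups upwards. The Trib3 ratio separated them downwards, at 3.38 to 7.05% in SAP libraries against 8.38 to 18.7% in control libraries. Its level alone overlapped between groups, and Atf4, the divisor, was itself higher in SAP livers. The share of all tested genes whose ratio to Atf4 separates the groups was not computed, so nothing particular is read from these separations. For Ppp1r15a, Atf5, Atf3, Chac1 and Sesn2 the ratios overlapped between groups, and the medians for Ppp1r15a were 10.8% in SAP and 10.6% in control libraries.

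**Figure D3:**
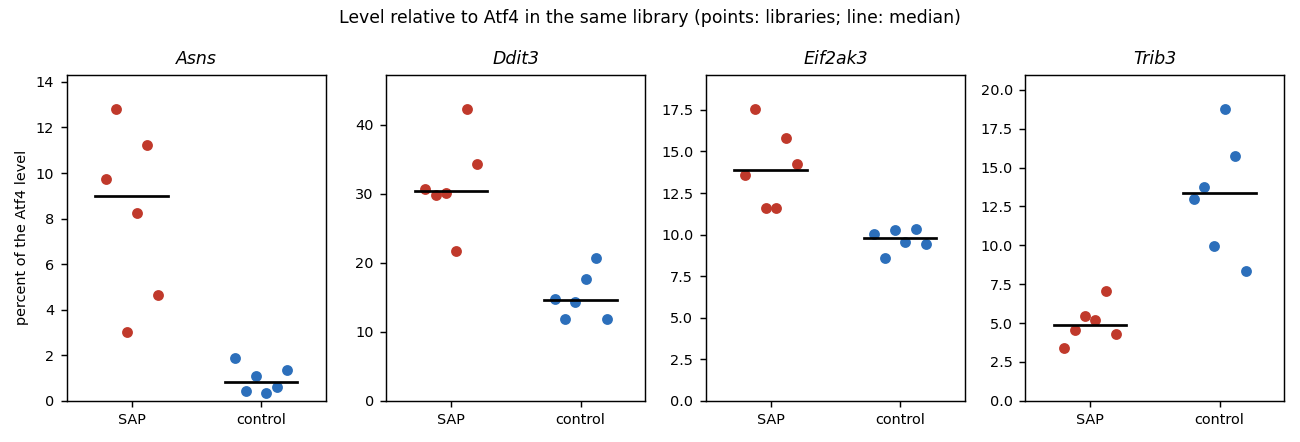
Level of Asns, Ddit3, Eif2ak3 and Trib3 as a percentage of the Atf4 level of the same library (vertical axes from 0); points are libraries and lines are medians (n = 6 each). The ratios are higher in every SAP library for the first 3 genes and lower in every SAP library for Trib3.

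SAP livers varied among themselves. The coefficient of variation between SAP libraries was 54.0% for Asns, 39.7% for Chac1, 37.1% for Ddit3 and 36.4% for Trib3, and 17.1 to 27.9% for the other members. SAP 14 had the highest value of its group for Ddit3, Trib3, Chac1, Asns and Eif2ak3, and the lowest for Atf5 and Sesn2. SAP 13 had the lowest Atf4, Ddit3 and Eif2ak3. Over the 45 pairs of members within each group, 90 correlations in all, 0 passed an adjusted p of 0.05 and 7 had an unadjusted p under 0.05 (exact permutation test, two-sided; the smallest adjusted p was 0.225). In SAP libraries Atf4 and Ddit3 had r = 0.91 (exact permutation p = 0.00972, adjusted p = 0.225) and rho = 0.94 (p = 0.0167, adjusted p = 0.50), with r = 0.998 after leaving out SAP 10 and SAP 14, the 2 farthest from the Atf4 median. In control libraries the same pair had r = -0.19 (exact permutation p = 0.751, adjusted p = 0.919) and rho = -0.09 (p = 0.919, adjusted p = 0.974), and r = 0.61 without control 8 and control 7. The smallest unadjusted p values were in control libraries. Atf4 and Ppp1r15a had r = 0.87 there (exact permutation p = 0.00694, adjusted p = 0.225) and rho = 0.94 (p = 0.0167, adjusted p = 0.50), and r = 0.77 without control 8 and control 7. Ppp1r15a and Eif2ak3 had r = 0.91 in control libraries (exact permutation p = 0.00694, adjusted p = 0.225) and rho = 0.83 (p = 0.0583, adjusted p = 0.656), and r = 0.61 without control 8 and control 5. Chac1 and Sesn2 had r = -0.90 in SAP libraries (exact permutation p = 0.0111, adjusted p = 0.225), rho = -0.83 (p = 0.0583, adjusted p = 0.656), and r = -0.60 without SAP 15 and SAP 14.

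After group means were subtracted, the tested genes most like Ddit3 over the 12 libraries were Hyou1 (r = 0.93), Copa (0.93) and Nomo1 (0.93), given as a description of the highest values among all tested genes. Hyou1 encodes an ER chaperone, Copa a subunit of the COPI vesicle coat and Nomo1 a membrane protein of the ER. The most like Atf4 were Foxk2 (r = 0.94), Tnfaip1 (0.94) and Rbm15b (0.93). Copa, Nomo1, Foxk2 and Rbm15b rose in SAP livers, by 0.61, 0.40, 0.41 and 0.53 on the log2 scale (limma adjusted p = 9.04e-06, 0.000435, 0.0122 and 0.00223). Hyou1 rose by 1.77 (limma adjusted p = 2.10e-06). Tnfaip1 had a log2 difference of 0.10 (limma adjusted p = 0.307).

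Libraries also differed across the groups. Xist, a nuclear RNA, was under 30 TPM in 4 SAP libraries (SAP 11, 13, 14 and 15) and 1 control library (control 5) and above it in the other 2 SAP and 5 control libraries. The labels give no sex, and whether this split follows sex was not tested. With this split as a term, Atf3 no longer passed, and every other member kept its direction and its side of the threshold. Within the high Xist libraries every member kept both, with changes of 1.85 for Asns, 1.39 for Ddit3, 1.13 for Chac1 and -0.96 for Trib3. The shares of 19.5% higher and 25.0% lower among all tested genes belong to the fit over all 12 libraries. The calls under these 2 settings are therefore not read against them. Within the low Xist libraries control 5 is the only control, so differences have no test there. They were 2.10 for Asns, 1.29 for Ddit3, 0.87 for Chac1, 0.70 for Eif2ak3 and -0.53 for Trib3.

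Markers of other cells also differed between the groups. Their counts stand beside 19.5% higher and 25.0% lower of all tested genes, 44.5% in either direction, and nothing particular is read from a count. The 10 neutrophil markers summed to 36.6 to 112 TPM in SAP livers, against 5.23 to 20.1 TPM in control livers, with 3 of 4 tested markers higher, Retnlg among them, which was tested through SAP libraries alone. The defining genes Ly6g, Elane and Mpo stayed under 1 TPM in every library. The 8 monocyte markers summed to 60.5 to 96.6 TPM in SAP livers, against 42.1 to 62.5 TPM in control livers, with 3 of 4 tested higher and Lyz2 lower. Of the 3, Itgam was tested through SAP libraries alone, and the call for Lyz2 did not hold within the high Xist libraries (limma adjusted p = 0.243). The 10 Kupffer cell markers summed to 210 to 473 TPM in SAP livers, against 237 to 351 TPM in control livers, with Marco higher and 3 markers lower. Of these 3, Clec4f and Timd4 lost their calls with the Xist split as a term (limma adjusted p = 0.0548 and 0.0901) and within the high Xist libraries, where their changes were -0.17 and -0.15 (limma adjusted p = 0.537 and 0.590), against -0.69 and -0.59 over all libraries. The 8 sinusoidal endothelium markers summed to 142 to 204 TPM in SAP livers, against 124 to 173 TPM in control livers, and 4 of 8 were higher. The 8 hepatocyte markers, on which the tissue label was checked, summed to 51014 to 66552 TPM in SAP livers, against 93649 to 104282 TPM in control livers. Alb was the most abundant of them, with a mean of 27673 TPM in SAP livers and 65029 TPM in control livers. Of the 8, 4 fell (Alb, Ttr, Cps1 and Ass1), Apoa1 rose by 0.24, and Apob, Trf and Hnf4a did not pass. The rise of Apoa1 did not hold under 4 settings, among them quantile normalization, where the difference turned to -0.29 (limma adjusted p = 0.0131). Transcripts of 10 pancreatic acinar genes summed to 0.56 to 1.43 TPM in SAP livers, against 0.80 to 12.9 TPM in control livers. The part of these cells in the results was not tested, and in whole liver fewer cells of a type and less RNA per cell cannot be told apart.

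The counts for the related lists are read against all tested genes, of which 19.5% rose and 25.0% fell, and nothing particular to a list is read from its count. Of 9 tested genes for the other eIF2 kinases and the regulators of the phosphorylation, 3 rose, 2 fell and 4 did not pass, with a median log2 change of -0.07 (44.5% of all tested genes passed in either direction). Dnajc3, whose product p58IPK restrains PERK, rose to 134 ± 15.4 TPM in SAP livers, against 46.1 ± 2.82 TPM in control livers (SD, n = 6 each; log2 change 1.51, limma adjusted p = 1.61e-08). The adaptor gene Nck1 rose by 0.58, and so did Ppp1r15b, the constitutive counterpart of Ppp1r15a, by 0.34, a gene named after its values were seen. Eif2ak4, which encodes the amino acid sensor GCN2, fell to 2.15 ± 0.394 TPM in SAP livers, against 3.21 ± 0.314 TPM in control livers (log2 change -0.43, limma adjusted p = 0.00352). The phosphatase catalytic subunit gene Ppp1ca fell by 0.25. That call was lost within the high Xist libraries (limma adjusted p = 0.0574), and with quantile normalization the difference turned to 0.09 (limma adjusted p = 0.197). Of 8 subunits of eIF2 and its exchange factor eIF2B, Eif2b4 rose by 0.37, Eif2s3x fell by 0.31 and 6 did not pass (median -0.03), Eif2b2 among them with a difference of -0.25.

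Among 14 tested bZIP genes whose products can pair with or compete with ATF4 and CHOP, 4 rose, 4 fell and 6 did not pass (median 0.05), beside 19.5% higher and 25.0% lower of all tested genes. Junb rose by 1.39, and Cebpg, a C/EBP partner of ATF4, by 0.49. Jun fell by 0.60, Cebpb by 0.69 and Nfe2l2, the gene of NRF2, by 0.38. Within the high Xist libraries the calls for Jun (limma adjusted p = 0.320) and Nfe2l2 (limma adjusted p = 0.296) did not hold, and that for Nfe2l2 was also lost with the Xist split as a term, without control 7, and without SAP 14 and control 5 together. That for Cebpb was lost under 10 settings, both rescalings and the loss of any of SAP 10, 11 and 12 and control 3, 4 and 6 among them (limma adjusted p between 0.0505 and 0.139).

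Of 19 listed ATF4 targets of amino acid synthesis and transport 13 were tested, and 4 rose, 5 fell and 4 did not pass (median -0.01), where 19.5% of all tested genes rose and 25.0% fell. The 6 untested genes reached at most 2.81 TPM in any library. Psat1, an enzyme of serine synthesis, rose to 6.57 ± 1.46 TPM in SAP livers, against 0.337 ± 0.164 TPM in control livers (SD, n = 6 each; log2 change 2.49, limma adjusted p = 1.69e-08). Like Asns, it was tested through SAP libraries alone, and so was Pycr1, an enzyme of proline synthesis, which rose by 1.0. The glycine transporter gene Slc6a9 rose by 0.41. Got1, the cytosolic aspartate transaminase, fell to 49.6 ± 22.0 TPM in SAP livers, against 238 ± 62.6 TPM in control livers (log2 change -2.29, limma adjusted p = 7.04e-06). Cth, which makes cysteine from cystathionine, fell to 105 ± 35.0 TPM in SAP livers, against 390.0 ± 67.8 TPM in control livers (log2 change -1.94, limma adjusted p = 8.37e-06).

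Of 20 aminoacyl-tRNA synthetase genes, several of which ATF4 is known to induce, 3 rose, 4 fell and 13 did not pass (median -0.05), with 19.5% higher and 25.0% lower among all tested genes. Nars rose by 0.66, Lars by 0.26 and Wars by 0.36, while Dars fell by 0.66 and Tars by 0.42. With quantile normalization 7 of them rose, and with scaling factors like those of TMM 5 rose. The median log2 change over all tested genes was 0.02 under both, against -0.03 in the main fit. Nothing particular is read from these counts. Without control 5 only Nars rose. Wars lost its call under 11 settings, without control 5 and within the high Xist libraries among them, and Lars under 3.

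Of 19 tested genes listed as other targets of ATF4 and CHOP, 5 rose, 7 fell and 7 did not pass (median -0.32). Of all tested genes, 19.5% were higher and 25.0% lower. The list also holds Chac2, Sesn1 and Sesn3, relatives of Chac1 and Sesn2, whose place as targets of ATF4 or CHOP was not checked. All fell (log2 change -0.70, -0.79 and -0.39), so they count among the genes that fell and pull the median down. Nupr1, a small stress-inducible chromatin protein, rose by 1.55, the autophagy gene Map1lc3b by 0.53 and the translation repressor gene Eif4ebp1 by 0.39. Vldlr, a lipoprotein receptor, fell by 1.56, and the pro-apoptotic gene Bbc3 by 1.0. Jdp2 is also in the bZIP list.

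Most genes listed for the ATF6 and IRE1 arms of the unfolded protein response rose. Herpud1, an ER stress gene placed in the list of other ATF4 and CHOP targets, did not pass (log2 difference -0.51, limma adjusted p = 0.0553). Of 19 tested genes 18 rose, 1 fell and 0 failed to pass, with a median log2 change of 1.43, and 18 of the 19 had separate groups. Of all tested genes 19.5% rose, and 25.6% had separate groups. The co-chaperone gene Sdf2l1 rose to 320.1 ± 99.8 TPM in SAP livers, against 57.0 ± 4.34 TPM in control livers (SD, n = 6 each; log2 change 2.42, limma adjusted p = 1.27e-07). Dnajb11, an ER co-chaperone, rose by 1.43 and Calr, the calcium-binding chaperone calreticulin, by 0.79. The sensor kinase gene Ern1, which encodes IRE1, fell to 11.7 ± 2.18 TPM in SAP livers, against 17.1 ± 1.34 TPM in control livers (log2 change -0.53, limma adjusted p = 0.0012). Genes of ER stress were known to be higher from earlier results of these data, so the count is no independent evidence of direction.

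**Figure D4:**
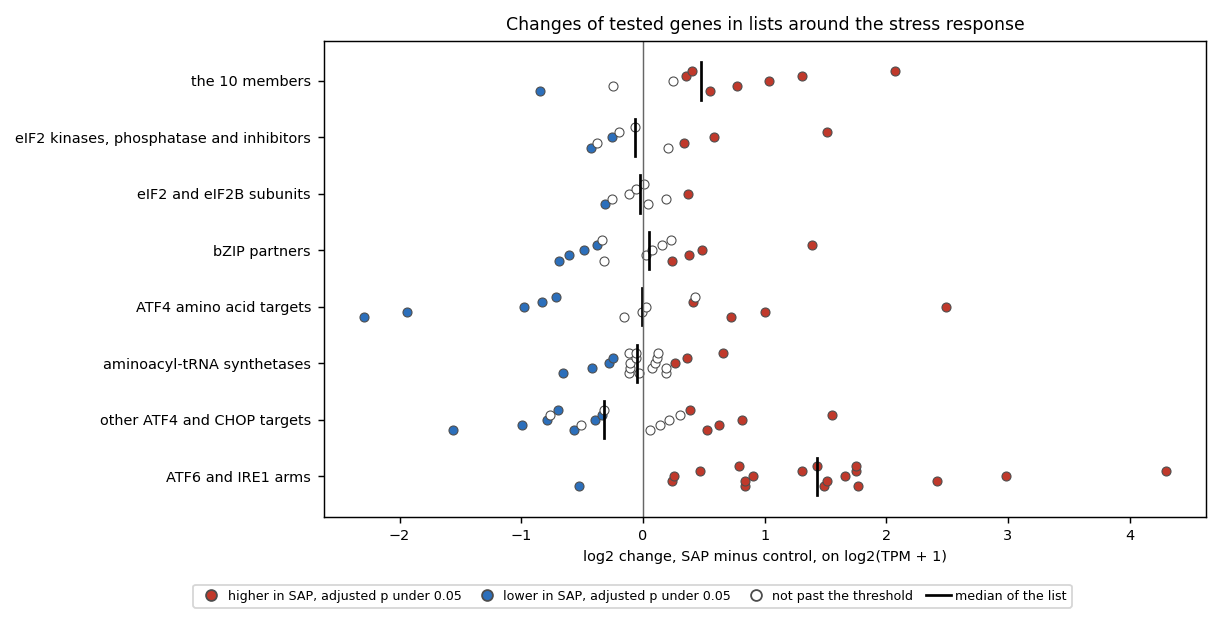
Log2 change, SAP minus control, of each tested gene by list (horizontal axis, on log2(TPM + 1)); red points rose, blue points fell and white points did not pass an adjusted p of 0.05, and black lines are list medians. The median is 1.43 for the ATF6 and IRE1 arms and 0.48 for the 10 members, and between -0.32 and 0.05 for the other lists.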

How the data were processed

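RNA-seq of 6 SAP and 6 control livers was used, grouped by sample titles, which also matched all 12 sample columns. The authors deposited values that were taken as TPM from the numbers alone: columns summed to 993412 to 995793 with 2 decimals, and no header names the unit. TPM drops the read number, so sequencing depth is unknown and counting error could not be given. The submitters' processing notes name edgeR, with no role. The sources used here do not give the aligner, build, annotation, strand or treatment of shared reads. The log2(TPM + 1) values were fitted with limma 3.58.1 (R 4.3.3; empirical Bayes with trend; group as the only term). A gene was tested if 6 of 12 libraries reached 1 TPM, which 11335 did. Tests were two-sided, with Benjamini-Hochberg adjustment over all of these. A symbol on several rows was represented by the row with the highest median. Named genes were the 10 members, the 3 tested genes of each list with the smallest adjusted p, up to 3 against most of their list, and the 3 genes most like Atf4 and Ddit3. Members, lists and the Xist split were chosen with earlier results of these data known. A simulation of SAP against control over 11335 genes recovered 37 of 67 changes of 0.5 (log2), 61 of 67 of size 1 and 65 of 66 of size 2, and made 8 false calls. It changed only those genes, with normal noise and 1 spread per gene for both groups, whereas 44.5% of genes passed in the data. Its recovery and false calls therefore do not give those of the fit used here. Promoters come from RefSeq (GRCm38.p6) and gene positions from GENCODE M21. The permutation tests were exact, and figures were drawn with matplotlib 3.10.9.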

Additional observations from a re-analysis of the deposited data

Results flagged for a closer look

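Within the 20 groups of 6 values (10 genes in SAP and in control libraries), 2 held a value far from the other 5 by Dixon's test, and chance flags about 1 in 20. Trib3 in SAP 14 was at 6.03 TPM, while the other SAP libraries reached at most 3.41 TPM. Ppp1r15a in SAP 10 was at 9.97 TPM, while the other SAP libraries reached at most 7.24 TPM. The row that shares the symbol Ddit3 and was not used reached 298.46 TPM in SAP 14, above its highest control value of 30.1 TPM in control 6, and it was listed at 0 in 9 of 12 libraries.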

How the results depend on the processing

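Ddit3, Chac1, Asns, Trib3, Eif2ak3 and Atf5 kept their direction and their side of the threshold under every alternative in which they were fitted. The exceptions for Atf4, Atf3 and Ppp1r15a are given with those genes. Atf3, Chac1, Asns and Sesn2 were not tested with a mean of at least 5 TPM, which left 4 higher members, and Ddit3 was not tested with the row of highest mean. In the low Xist libraries, compared alone after the data were seen and with no test, the differences turned to -0.0425 for Atf3 and -0.0089 for Ppp1r15a. Quantile normalization turned Ppp1ca to 0.0852 and the hepatocyte marker Apoa1 to -0.29. With no filter on low values, 1 gene of the eIF2 kinase list fell, 2 bZIP genes rose and 1 fell, and 1 synthetase gene rose and 2 fell; limma warned that its variance estimates are unreliable there. With a mean of at least 5 TPM, where fewer genes were tested, 1 kinase list gene fell, 1 amino acid target rose and 4 other targets fell. Rescaling like TMM gave 5 higher synthetase genes, and quantile normalization gave 7, with 1 lower kinase list gene and 2 higher eIF2 or eIF2B genes. With the Xist split as a term 1 bZIP gene and 2 synthetase genes fell. In the high Xist libraries alone, 7 samples, 1829 genes fell in all, 1 of them in the kinase list, 1 in the bZIP list and 4 among other targets. Without SAP 14 and control 5, 2 bZIP genes fell and 1 synthetase gene rose. Leaving out 1 library at a time gave 6 to 7 higher and 1 lower members, 1956 to 2452 higher and 2537 to 3062 lower genes, 1 to 2 higher and 1 to 2 lower eIF2 or eIF2B genes (2 higher without control 8, 2 lower without control 7), 2 to 4 lower bZIP genes (2 without control 3 or control 4) and 1 to 6 higher synthetase genes (1 without control 5, 5 without SAP 12, 6 without SAP 13). Of 53 named genes outside the members that passed, 10 lost the call under some setting. Except where fewer genes or samples entered, the cause was not tested. No paired analysis was possible because the groups share no replicate number. TPM keeps no depth, so the precision of low transcripts such as Atf3 and Asns is unknown.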
